A study of Mus musculus with 2 samples.

Results

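The genes described here encode 4 groups of proteins that act early in the removal of introns: the SR proteins, the heterogeneous nuclear ribonucleoproteins (hnRNPs), the SF3A and SF3B subunits, and the U2AF proteins. They were chosen by gene name, as every symbol that starts with Srsf and a digit, Hnrnp, Hnrp, Sf3a, Sf3b or U2af and had a mean of at least 1 FPKM over the libraries. FPKM is the number of sequenced fragments of a gene relative to its transcript length and to all mapped fragments of the library. The names fit 43 of the 24346 symbols in the deposited tables. Of these, 42 passed the minimum and are the members: 10 SR protein genes, 20 hnRNP genes, 9 SF3A and SF3B genes and 3 U2AF genes. Only Srsf12, an SR protein gene, stayed under it, at 0.477 FPKM with probucol and 0.292 FPKM untreated, on about 13 and 7.97 fragments. The nearest member above the minimum was Hnrnpul2, at 2.42 and 1.99 FPKM.

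The study sequenced RNA of mouse splenic CD4+ T cells, obtained by sorting on day 14. The 2 libraries came from HFD-MI animals that received probucol, an antioxidant that lowers blood cholesterol, and from HFD-MI animals left untreated. Both groups carry the label HFD-MI, and MI stands for myocardial infarction in the series title. The sources used here give no genotype, strain, age, dose or number of animals per library, and do not explain the word HypoE in the header of both tables. Since each group has a single library, nothing measures the spread between animals: differences below are between these libraries, without a p-value, and the intervals cover counting error only.

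Early in pre-mRNA splicing, U2AF binds the pyrimidine-rich end of an intron. It helps the U2 small nuclear ribonucleoprotein (snRNP), which carries SF3A and SF3B, onto the branch point. SR proteins bind exon sequences and mostly favour the use of nearby splice sites, and their tails rich in arginine and serine are phosphorylated by SRPK and CLK kinases. Many hnRNPs coat the pre-mRNA and silence splice sites, and several also act in export, stability or translation of mRNA. In T cells these factors are best known for switching the variable exons of Ptprc, which encodes the surface phosphatase CD45, with hnRNP L-like (Hnrnpll) as the main silencer of those exons after activation.

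Each library held an estimated 1.04e+07 fragments in genes, and the members rested on about 118 to 21351 fragments with probucol and 97.6 to 21108 untreated. T cell genes were abundant in both libraries: the 8 CD4 T cell markers found in the tables, of 11 listed, summed to 4568 FPKM with probucol and 4704 FPKM untreated. Other cell types moved between the libraries. All 9 tested of 14 listed B cell markers were higher with probucol (summed level 109 FPKM against 56.7 FPKM, with Pax5 at 0 in both libraries and Blnk at 0 untreated). All 12 erythroid markers found were lower, at a summed 341 FPKM against 1053 FPKM, with none at 0. The 15 macrophage markers summed to 194 and 185 FPKM, mostly from Lyz2 (125 and 132 FPKM), with Vsig4 at 0 in both and Marco at 0 with probucol. Of the tested ones, Lyz2, C1qa and Spic were lower with probucol and the others higher, among them Csf1r (3.75 and 1.85 FPKM) and Vcam1 (8.11 and 4.73 FPKM). The 11 neutrophil markers, none at 0, summed to 1088 and 967 FPKM, mostly from S100a8, S100a9 and Ngp. The granule gene Elane was at 12.0 and 2.80 FPKM, Mpo at 10.9 and 4.23 FPKM, Prtn3 at 6.05 and 3.14 FPKM and Mmp8 at 3.53 and 1.78 FPKM, all higher with probucol. The granule genes Ctsg, at 0.884 and 2.01 FPKM, and Camp, at 47.7 and 54.1 FPKM, were lower. The 10 natural killer markers summed to 59.2 and 55.0 FPKM, mostly from Prf1 (49.9 and 36.3 FPKM), with Klra8 at 0 in both and Klra4 at 0 untreated. Of the 6 tested, 4 were lower with probucol: Gzma at 0.150 and 3.28 FPKM, Klrd1 at 1.22 and 6.22 FPKM, Klrk1 at 0.785 and 2.38 FPKM and Eomes at 2.77 and 4.50 FPKM. CD8 T cell markers summed to 16.1 and 19.9 FPKM, nearly all from Cd8b1 (15.9 and 19.6 FPKM), with Cd8a at 0.139 and 0.276 FPKM. Dendritic cell markers summed to 6.20 and 7.04 FPKM, with Clec9a, Itgax and Batf3 at 0 untreated. All of these cells also use splicing factors, and their part in the ratios below was not tested. In a bulk library, fewer cells of a type and less RNA per cell cannot be told apart.

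Splicing factor genes were among the more abundant genes of these T cells. The median member had a mean level of 77.7 FPKM, against 14.8 FPKM over the 10663 genes with a mean of at least 1 FPKM, which are called the tested genes. Of the 42 members, 17 lay in the top 10% of tested genes by level and 3 below the median tested gene. Together the name-matched genes made up 0.787% of all FPKM with probucol and 0.711% untreated. By family, the median level was 116 FPKM for SF3A and SF3B subunits, 94.1 FPKM for SR proteins, 83.0 FPKM for the U2AF genes and 51.7 FPKM for hnRNPs. The hnRNPs spread furthest, from 2.203 FPKM for Hnrnpul2 to 769 FPKM for Hnrnpf, a 349-fold range, while the SF3A and SF3B genes stayed between 13.5 and 138 FPKM.

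**Figure D1:**
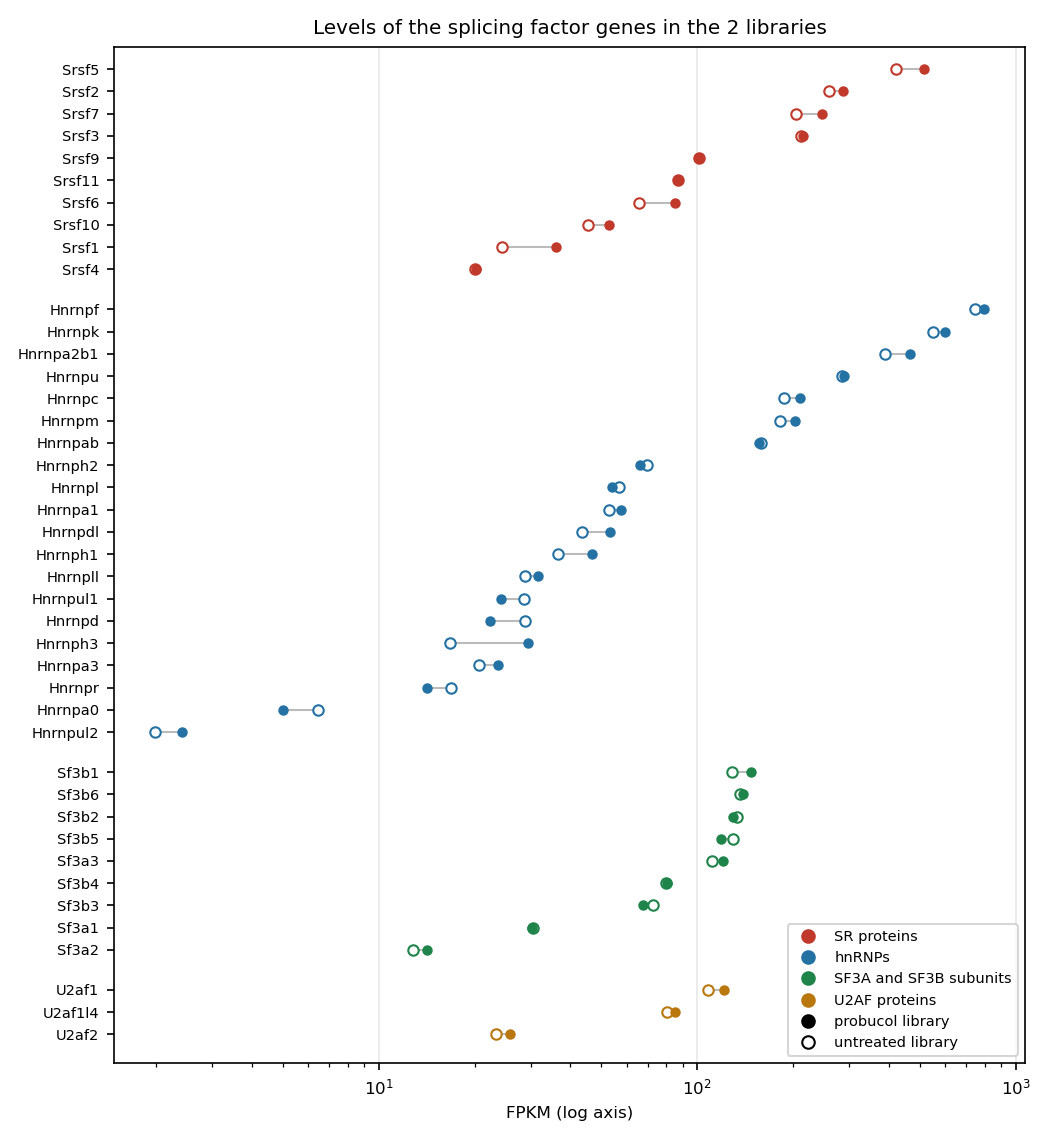
FPKM (log axis) of each of the 42 members in the probucol library (filled) and the untreated library (open), by family and in order of mean level; each point is 1 library. Filled and open points of a gene lie close together at every level, with the widest gaps at Hnrnph3 (29.4 and 16.8 FPKM) and Srsf1 (36.1 and 24.4 FPKM).

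Most members differed little between the libraries. On the scale of log2((probucol FPKM + 1)/(untreated FPKM + 1)), 37 of 42 members lay within 1.25-fold, 4 were at least 1.25-fold higher with probucol and 1 at least 1.25-fold lower, where 17.8% and 14.1% of all tested genes were higher and lower by that much. Among tested genes at a mean of 10 FPKM or more, a level that 40 members reached, these shares were 12.2% and 9.83%. At 1.5-fold, 1 member was higher and 0 were lower, against 5.99% and 5.53% of tested genes and 3.38% and 2.59% of those at 10 FPKM or more. At 2-fold there was no member in either direction, against 1.62% and 1.98%, or 1.03% either way at 10 FPKM or more. The share of members past each of these folds was thus smaller than that of tested genes, but it rests on few genes. On the higher side the counts lay near the shares at 10 FPKM or more, so no difference is read from them. The lean was upward but small: 30 of 42 members had a log2 ratio above 0 and 12 one below 0, against 52.7% and 47.3% of tested genes, and 50.2% and 49.8% of those at 10 FPKM or more. The median member was at 0.12 and the median tested gene at 0.02. Whether this lean exceeds the variation between animals was not tested.

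The families did not share one pattern. SR proteins had a median log2 ratio of 0.18, with 9 of 10 genes above 0, and the hnRNPs one of 0.12, with 13 of 20 above 0 and a wide spread from -0.35 to 0.77. SF3A and SF3B subunits centred at 0.01, with 5 of 9 above 0 and a range from -0.13 to 0.20. That median became -0.00557 when ratios were centred on the median tested gene, so its sign is not settled. The 3 U2AF genes lay between 0.08 and 0.17. The ranges overlap, and the differences between families were not tested, since genes of a family are not replicates. Summed over each family, SR protein genes reached 1647 FPKM with probucol and 1442 FPKM untreated, and SF3A and SF3B genes 848 and 836 FPKM.

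**Figure D2:**
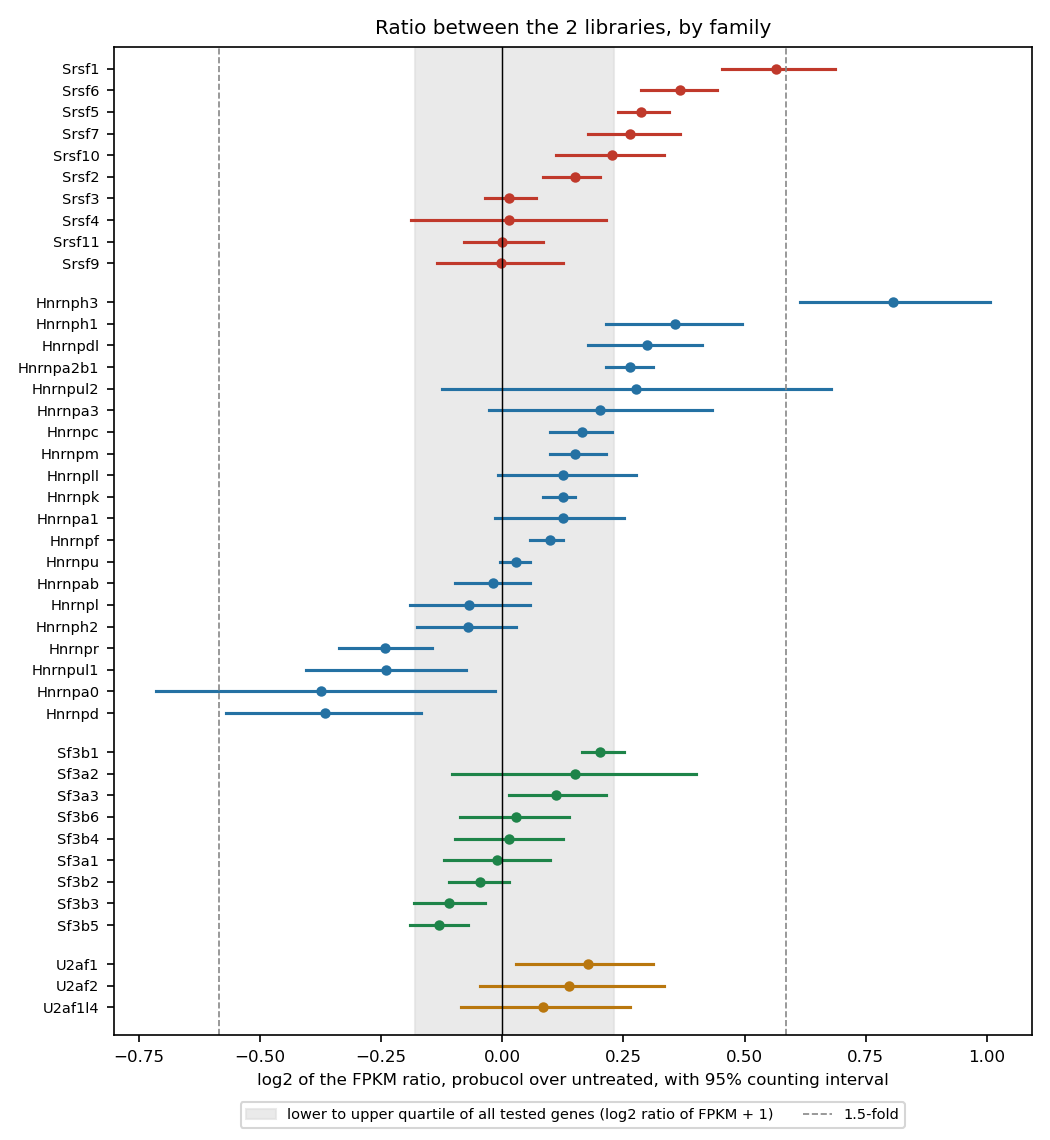
Log2 of the FPKM ratio (probucol over untreated) of each member with its 95% counting interval, by family, beside the lower to upper quartile of all tested genes (grey, on FPKM + 1) and 1.5-fold (dashed). SR proteins lie at or to the right of 0, hnRNPs on both sides, and SF3A and SF3B subunits close to 0; only Hnrnph3 lies past 1.5-fold.

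The stretches of 250 bases before the start site of 37 members were found in RefSeq (GRCm38.p6, the same assembly as mm10) and searched on both strands for short motifs. The CCAAT box (CCAAT), bound by NF-Y, was in 18 of 37 member stretches (48.6%), against 37.3% of tested genes and 34.5% of all genes in the table. By family it was in 12 of 18 hnRNP stretches (66.7%) and 3 of 10 SR stretches. The ETS site (CCGGAAG) was in 12 of 37 member stretches (32.4%) against 15.7% of tested genes. By family it was in 4 of 10 SR stretches and 2 of 18 hnRNP stretches (11.1%). A heat shock element was sought as GAANNTTC and as TTCNNGAA, the sites of the chaperone regulator HSF1; the first was in 3 of 37 members (8.11%) against 5.21% of tested genes, and the second in 0 against 5.98%. A GC box (GGGCGG) was in 73.0% of members and 59.6% of tested genes, and a TATA box (TATAAA) in 10.8% and 5.93%. A cyclic AMP response element (TGACGTCA) was in 0 members and 2.93% of tested genes, and an E-box (CACGTG) in 5.41% and 8.67%. One GC-rich stretch can hold several of these motifs, and a match is a description of letters, not of binding. The 6 stretches below come from SR and hnRNP genes among the highest or lowest ratios of their family and hold no annotated exon. Capitals mark CCAAT boxes in either direction, ETS sites and heat shock elements. Srsf6 (chr2:162931258-162931507, plus strand) and Srsf9 (chr5:115326927-115327176, plus strand) show a higher and a level SR gene. Hnrnph1 (chr11:50376740-50376989, plus strand) and Hnrnpa2b1 (chr6:51469895-51470144, minus strand) were higher, and Hnrnpul1 (chr7:25754760-25755009, minus strand) and Hnrnpr (chr4:136310692-136310941, plus strand) lower.
Srsf6: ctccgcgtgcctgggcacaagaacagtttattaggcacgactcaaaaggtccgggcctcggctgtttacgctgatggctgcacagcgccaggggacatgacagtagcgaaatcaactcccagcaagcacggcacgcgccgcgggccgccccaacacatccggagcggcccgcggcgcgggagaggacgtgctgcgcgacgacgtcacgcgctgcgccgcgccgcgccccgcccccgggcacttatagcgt
Srsf9: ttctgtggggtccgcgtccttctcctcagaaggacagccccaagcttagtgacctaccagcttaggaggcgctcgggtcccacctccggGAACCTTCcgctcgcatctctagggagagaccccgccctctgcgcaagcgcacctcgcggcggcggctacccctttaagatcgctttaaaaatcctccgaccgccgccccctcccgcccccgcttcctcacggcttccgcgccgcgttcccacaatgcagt
Hnrnph1: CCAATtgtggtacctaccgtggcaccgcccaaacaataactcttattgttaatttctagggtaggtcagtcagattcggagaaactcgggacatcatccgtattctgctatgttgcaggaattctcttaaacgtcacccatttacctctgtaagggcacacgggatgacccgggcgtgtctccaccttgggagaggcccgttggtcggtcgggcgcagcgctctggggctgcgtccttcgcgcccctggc
Hnrnpa2b1: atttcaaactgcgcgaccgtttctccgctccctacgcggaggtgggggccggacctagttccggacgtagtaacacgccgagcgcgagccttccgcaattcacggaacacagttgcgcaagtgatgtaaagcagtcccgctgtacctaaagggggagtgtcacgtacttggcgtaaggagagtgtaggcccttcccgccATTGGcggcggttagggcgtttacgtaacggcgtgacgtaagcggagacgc
Hnrnpul1: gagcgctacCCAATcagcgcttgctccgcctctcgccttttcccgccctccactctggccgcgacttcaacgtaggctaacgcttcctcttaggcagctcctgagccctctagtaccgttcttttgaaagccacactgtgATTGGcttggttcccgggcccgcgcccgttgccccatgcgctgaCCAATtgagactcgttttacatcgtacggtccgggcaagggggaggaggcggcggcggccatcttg
Hnrnpr: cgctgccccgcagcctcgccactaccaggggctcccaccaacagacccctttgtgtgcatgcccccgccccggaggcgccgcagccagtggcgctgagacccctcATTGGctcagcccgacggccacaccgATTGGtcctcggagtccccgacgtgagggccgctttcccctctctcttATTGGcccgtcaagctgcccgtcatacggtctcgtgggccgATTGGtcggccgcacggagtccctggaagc
The CCAAT box was thus found in hnRNP genes that were higher with probucol and in ones that were lower. Of the 4 hnRNP genes with the lowest ratios, Hnrnpr held 4 copies, Hnrnpul1 3, Hnrnpa0 1 and Hnrnpd 0. Of the 4 with the highest, Hnrnph1 and Hnrnpa2b1 held 1 each, and Hnrnph3 and Hnrnpdl 0. The stretches of Hnrnph3 and Hnrnpdl overlap annotated exons of these same genes, and that of Hnrnpd an exon of another gene. Their counts of 0 thus do not refer to exon-free upstream sequence alone, and the shares above include such stretches. Srsf6 held none of the marked motifs in this stretch, and Srsf9, whose level was equal in the libraries, held the heat shock element.

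Among the SR proteins, 6 genes were higher with probucol by 1.11-fold to 1.48-fold, and 4 were level. Srsf1, the founding member of the family (SF2/ASF; chromosome 11, 88047373 to 88053755, mm10), stood furthest apart. It measured 36.1 FPKM with probucol against 24.4 FPKM untreated, 1.48-fold higher (95% counting interval 1.37 to 1.61). It was thus the second lowest SR gene by level, above Srsf4, and the highest by ratio. Srsf6, which binds purine-rich exon sequences, was at 84.9 and 65.9 FPKM, 1.29-fold higher (1.22 to 1.36). Srsf5, the most abundant SR gene here, was at 515 and 421 FPKM, 1.22-fold higher (1.18 to 1.27). Srsf7, an SR protein with a zinc knuckle that also serves mRNA export, was at 247 and 205 FPKM, 1.20-fold higher (1.13 to 1.29). Srsf10, which turns into a general splicing repressor when it loses its phosphates during heat shock or mitosis, was at 52.9 and 45.4 FPKM. Its ratio of 1.17 (1.08 to 1.26) was close to that of Srsf2, a component of nuclear speckles, at 287 and 259 FPKM and 1.11-fold higher (1.06 to 1.15). Part of Srsf2 lies over exons of Mfsd11 and Mettl23 on the opposite strand, and no stranded counting is named, so reads of these genes cannot be told apart.

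The level SR genes included both abundant and scarce ones. Srsf3, which works with Srsf7 in mRNA export, was at 215 and 212 FPKM, and its ratio of 1.01 had an interval of 0.976 to 1.05. Srsf11 was at 87.1 and 86.9 FPKM, Srsf9 at 101.2 and 101.4 FPKM, and Srsf4, the lowest member of the family, at 20.2 and 20.0 FPKM. Srsf4 shares 1532 bases of exon with Gm12992 on the opposite strand, so reads of these genes cannot be told apart. The interval of Srsf4 reached from 0.878 to 1.16, so a difference like that of Srsf2 would not have been detectable for it at this depth, whereas that of Srsf11 (0.947 to 1.06) left out the ratios of Srsf10 and the 4 genes above it. Srsf3 and Srsf7, which share a function, thus had intervals that do not overlap. The 4 level genes had small positive or negative log2 ratios, from -0.00348 to 0.0208, and 2 of them (Srsf4 and Srsf11) passed to the other side of 0 when ratios were centred on the median tested gene.

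The hnRNP family was led by Hnrnph3, a member of the F and H subfamily, which binds runs of guanines (chromosome 10, 63014664 to 63024217). It measured 29.4 FPKM with probucol against 16.8 FPKM untreated, 1.75-fold higher (1.53 to 2.01), on about 578 and 332 fragments, and it was the single member past 1.5-fold. The paralogues of the same subfamily did not go with it in equal measure. Hnrnph1 was at 46.9 and 36.6 FPKM, 1.28-fold higher (1.16 to 1.41). Hnrnpf, the most abundant of all members, was at 793 and 744 FPKM, 1.07-fold higher (1.04 to 1.09). Hnrnph2, an X-linked gene with few exons, was at 66.1 and 69.4 FPKM, a ratio below 1 with an interval of 0.885 to 1.02. The 4 genes of this subfamily thus lay on both sides of equal levels, with Hnrnph3, the scarcest of them, at the highest ratio.

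The A and B subfamily, which binds UAG-containing sequences and often opposes SR proteins in splice site choice, held both directions. Hnrnpa2b1 was at 467 and 390.1 FPKM, 1.20-fold higher (1.16 to 1.24). Hnrnpa3 was at 23.8 and 20.7 FPKM and Hnrnpa1 at 57.5 and 52.9 FPKM, with intervals from 0.981 to 1.35 and from 0.989 to 1.19. Both have processed gene copies elsewhere in the genome, so fragments could have been split and their values are uncertain. Hnrnpa0, which has no intron (1 exon, chromosome 13, 58125879 to 58128556), was lower: 4.99 and 6.47 FPKM, 1.30-fold (1.01 to 1.64). Hnrnpab, placed here by its symbol only, was level, at 156 and 158 FPKM.

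Lower with probucol by 1.18-fold to 1.30-fold were 4 hnRNP genes, and Hnrnpd was the lowest of all members on the log2 scale. Hnrnpd encodes AUF1, which binds AU-rich elements and directs mRNA decay (chromosome 5, 99955935 to 99978938). It measured 22.3 FPKM with probucol against 28.7 FPKM untreated, 1.29-fold lower (1.12 to 1.49). Its neighbour and close relative Hnrnpdl was on the other side, at 53.1 and 43.4 FPKM, 1.23-fold higher (1.13 to 1.33). Hnrnpr, a relative of Syncrip, was at 14.2 and 16.8 FPKM, 1.18-fold lower (1.11 to 1.26), and this interval is the least sure because its annotated transcripts run from 2543 to 21452 bases. With the trend on length and GC content removed, Hnrnpr moved from -0.23 to -0.50 on the log2 scale and lay below Hnrnpd, which was then at -0.31. Hnrnpul1, a relative of the scaffold attachment protein Hnrnpu, was at 24.3 and 28.7 FPKM, 1.18-fold lower (1.05 to 1.33). Hnrnpu itself was level, at 289 and 284 FPKM (ratio interval 0.997 to 1.04). The lower genes, Hnrnpa0 among them, all had a mean level under 30 FPKM.

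Of the other abundant hnRNPs, Hnrnpk, which binds cytosine-rich sequences, was at 601 and 552 FPKM, 1.09-fold higher (1.06 to 1.11). Hnrnpc, which packages pre-mRNA as a tetramer, was at 210.1 and 188 FPKM, and Hnrnpm at 203 and 182 FPKM, with folds of 1.12 and 1.11. All 3 were higher by less than 1.25-fold. The regulators of CD45 splicing lay near each other: Hnrnpll was at 31.6 and 28.9 FPKM (ratio interval 0.994 to 1.21) and its paralogue Hnrnpl at 54.2 and 56.8 FPKM (0.876 to 1.04). Both intervals include equal levels. Their target gene Ptprc (chromosome 1, 138062861 to 138175708) measured 325 FPKM with probucol against 260.4 FPKM untreated, 1.25-fold higher (1.22 to 1.28). These values sum all Ptprc transcripts, so nothing can be said here about which CD45 exons were included.

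The SF3A and SF3B subunits, which form the body of the U2 snRNP around the branch point, were the family nearest to equal levels. Sf3b1, the largest subunit, which holds the branch point helix, was at 148 and 128 FPKM, 1.15-fold higher (1.12 to 1.19). Removal of the trend on length and GC content took the log2 ratio of Sf3b1 from 0.20 to 0.0389. Sf3b3, which binds Sf3b1 in the same complex, was at 67.4 and 72.7 FPKM, 1.08-fold lower (1.02 to 1.13). The small subunit Sf3b5, from a gene with 1 exon, was at 119 and 129.8 FPKM, 1.10-fold lower (1.05 to 1.14). The subunits of this complex thus differed in direction by small amounts. Sf3b2 was at 129 and 134 FPKM, Sf3b4 at 80.4 and 79.7 FPKM, and Sf3b6, which lies next to the branch point adenosine, at 139 and 137 FPKM. In SF3A, Sf3a3 was at 120.5 and 111 FPKM, 1.08-fold higher (1.01 to 1.16), Sf3a1 at 30.3 and 30.6 FPKM, and Sf3a2, the scarcest subunit gene, at 14.2 and 12.8 FPKM (0.931 to 1.32). The mRNA level of Sf3a2 was thus under those of its partners Sf3a1 and Sf3a3. The complex is known to hold equal numbers of each subunit, but that refers to protein, which was not measured. Sf3a2 also shares 429 bases of exon with Plekhj1 on the opposite strand.

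All 3 U2AF genes had a log2 ratio above 0. U2af1, whose product reads the AG at the end of the intron, was at 121 and 108 FPKM, 1.13-fold higher (1.02 to 1.24). U2af2, whose product binds the pyrimidine tract, was at 25.8 and 23.4 FPKM, and the U2af1 paralogue U2af1l4 at 85.4 and 80.5 FPKM, with intervals from 0.969 to 1.26 and from 0.943 to 1.20. Of the 3 genes, the intervals of U2af2 and U2af1l4 include equal levels. U2af1l4 shares exon sequence with Psenen on the opposite strand, and 10 of the 42 members overlap an exon of another gene of the tables in this way or on the same strand. The longest overlaps were those of Srsf4 (1532 bases) and of Hnrnpm with March2 on the same strand (1169 bases). Hnrnph3 overlaps Rufy2 on the opposite strand by 115 bases.

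Other genes of the splicing machinery were taken from 11 lists of known factors. Together they held 163 tested genes outside the members, with a median log2 ratio of 0.08 and 106 above 0. Partners of the SR proteins lay mostly above 0. Of 20 SR-related proteins and coactivators, 19 were above 0, with a median of 0.26, and 2 were at least 1.5-fold higher: Pnisr, at 26.1 and 12.9 FPKM, 2.03-fold higher (1.83 to 2.25), and Pnn (pinin, a speckle and exon junction protein), at 39.6 and 23.5 FPKM, 1.68-fold higher (1.54 to 1.84). Srrm2, a large scaffold protein of nuclear speckles, was at 63.3 and 44.6 FPKM, 1.42-fold higher (1.36 to 1.48). Of 8 tested SR protein kinases, 6 were above 0, with a median of 0.21. Prpf4b, a kinase of the spliceosome, was at 25.8 and 13.9 FPKM, 1.86-fold higher (1.73 to 2.01). Clk4 and Clk1, which phosphorylate SR proteins in the nucleus, were at 68.2 and 51.4 FPKM and at 167 and 140.2 FPKM. Dyrk1a went the other way, at 6.60 and 8.44 FPKM, 1.28-fold lower (1.11 to 1.47). So did Clk3, at 62.1 and 67.0 FPKM, with a ratio interval of 0.861 to 0.997.

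The structural snRNP proteins showed no such lean. Of 18 tested snRNP proteins 8 were above 0 and 10 below, with a median of -0.01. Their summed level was 3814 FPKM with probucol and 3833 FPKM untreated. The lowest was Snrnp35, a protein of the minor spliceosome, at 2.95 and 6.66 FPKM, 2.26-fold lower (1.38 to 3.62), on about 26.5 and 60.3 fragments. Among the higher ones, Snrpd3 was at 549 and 480 FPKM, 1.15-fold higher (1.12 to 1.17). The LSM proteins, whose rings bind the end of U6 RNA and of decaying mRNA, had a median of -0.18, with 6 of 8 below 0. Among them Lsm4 was at 204 and 245 FPKM, 1.20-fold lower (1.12 to 1.29), a log2 ratio of -0.27 that became -0.13 with the trend on length and GC content removed. Lsm2 was on the other side, at 77.7 and 65.2 FPKM, 1.19-fold higher (1.05 to 1.36). Tri-snRNP and catalytic proteins were evenly split, 15 above 0 and 15 below, with a median of 0.01, from Isy1 at 1.34-fold lower (1.27 to 1.40) to Prpf39 at 1.54-fold higher (1.42 to 1.68). The minor spliceosome list had a median of -0.05 over 8 genes, with 3 above 0. The trend fitted on length and GC content itself differed between these lists. Its median was 0.09 for SR-related proteins and -0.06 for both snRNP and LSM proteins. How much of the gap between the lists goes with these features was not tested.

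**Figure D3:**
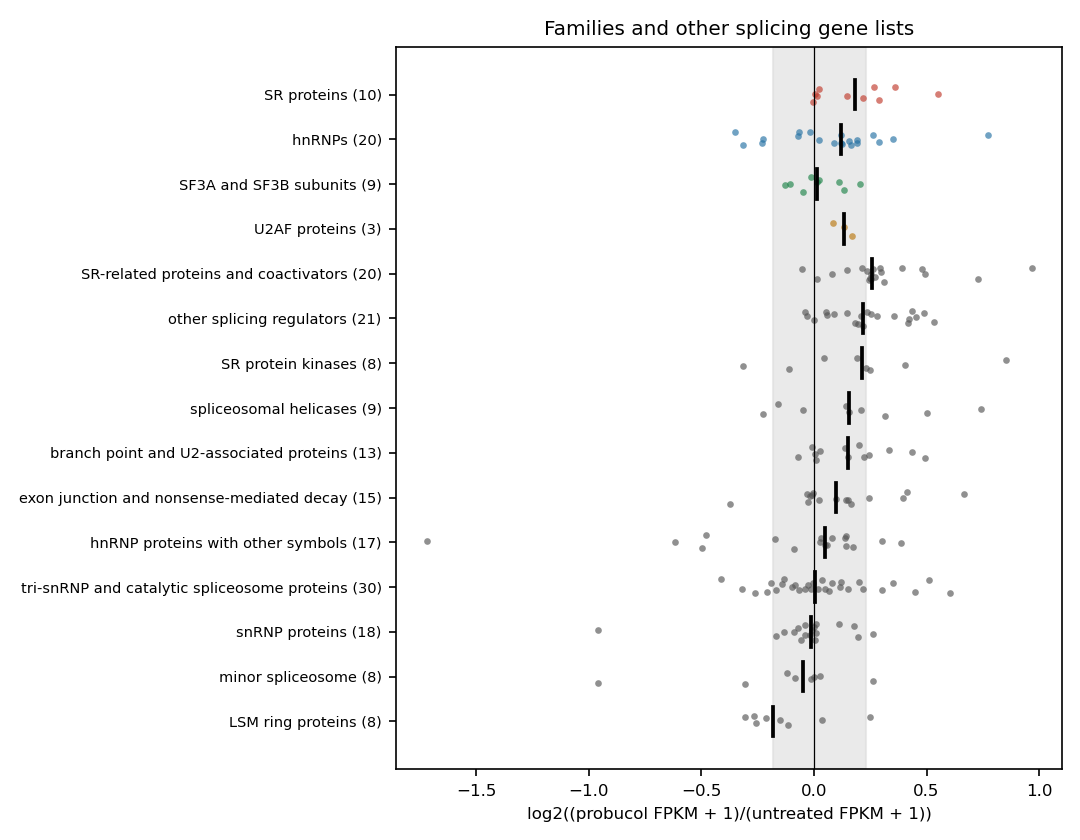
Log2((probucol FPKM + 1)/(untreated FPKM + 1)) of each tested gene (points) with the median of its list (bar), for the 4 families and 11 other splicing lists, with the number of tested genes in brackets and the quartiles of all tested genes in grey. SR-related proteins (median 0.26) lie to the right of snRNP (-0.01) and LSM proteins (-0.18).

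The remaining lists lay between these. Branch point and U2-associated proteins, the direct partners of SF3B and U2AF, had a median of 0.15 with 11 of 13 above 0. Their leading member was Rbm5, at 143 and 101 FPKM, 1.41-fold higher (1.35 to 1.48), followed by U2surp at 17.0 and 12.3 FPKM. Spliceosomal helicases had a median of 0.16 (6 of 9 above 0), led by Ddx46, which remodels the U2 snRNP, at 27.4 and 16.0 FPKM and 1.71-fold higher (1.57 to 1.86). Dhx8, the lowest of that list, was at 20.4 and 24.0 FPKM, 1.18-fold lower (1.07 to 1.29). Other splicing regulators had a median of 0.22 with 19 of 21 above 0. Celf1 was at 37.3 and 25.5 FPKM and Matr3, a nuclear matrix protein, at 62.3 and 45.2 FPKM. Genes of the exon junction complex and of nonsense-mediated decay, which degrades mRNA with early stop codons, had a median of 0.10 (9 of 15 above 0). Over the 9 alternatives of the closing section that median went from 0.00973 to 0.12, so the lean of this list is not settled. Smg1, the kinase of this decay, was at 5.80 and 3.29 FPKM, 1.76-fold higher (1.58 to 1.97).

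A list of hnRNP proteins with other symbols, which also holds related RNA-binding proteins such as Rbm3 and Elavl1, had a median of 0.05. Of its 17 tested genes 11 were above 0, but the furthest of them were lower. Rbm3, a cold-inducible RNA-binding protein, was at 139 and 214 FPKM, 1.54-fold lower (1.44 to 1.64). Its relative Cirbp was at 33.5 and 47.6 FPKM, 1.42-fold lower (1.24 to 1.63). Pcbp4 was at 0.931 and 5.35 FPKM, 5.74-fold lower (3.37 to 10.1), on about 16.9 and 97.5 fragments. Ptbp1, the polypyrimidine tract binding protein, named after its value was seen, was at 59.1 and 82.7 FPKM, 1.40-fold lower (1.31 to 1.49). On the other side Tardbp was at 25.2 and 19.1 FPKM, 1.32-fold higher (1.23 to 1.43).

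Set beside other abundant gene groups, the families did not stand at an extreme. Cytosolic ribosomal proteins had a median log2 ratio of -0.17 over 83 genes, translation factors one of -0.03 over 61 genes and proteasome subunits one of -0.00225 over 48 genes. HSP70, HSP90, HSP110 and chaperonin genes had a median of 0.45 over 25 genes, above that of each splicing family. The noncoding RNA Malat1, which collects in the same nuclear speckles as SR proteins, was at 234 and 91.1 FPKM, 2.57-fold higher (2.49 to 2.64). Neat1, the scaffold of paraspeckles, was at 34.6 and 25.8 FPKM, 1.34-fold higher (1.28 to 1.41). None of these groups was tested against the members.

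The ratio went with base composition. Across the 10269 tested genes found in the GENCODE annotation, Spearman's rho of the log2 ratio was -0.139 with the GC content of the transcript and 0.226 with its length. Across the 42 members it was -0.370 with GC content and -0.122 with length, over genes measured in the same 2 libraries. Of 18 members with a GC content under 45%, 16 were above 0, with a median of 0.18, against 63.4% and 0.10 for all tested genes in that group. Of 12 members with 52% or more, 6 were above 0, with a median of 0.00, against 46.2% and -0.03. Of the 6 higher SR genes, Srsf1, Srsf6, Srsf5 and Srsf10 had GC contents of 41.7% to 44.0%, Srsf7 of 46.4% and Srsf2 of 50.0%. Of the 4 level ones, Srsf3 had 40.0%, Srsf11 46.0%, Srsf9 56.2% and Srsf4 56.8%, so the ranges of higher and level genes overlap. With a fitted trend on length and GC content removed, the SR median was 0.18 and the hnRNP median 0.0909, while Srsf1 was at 0.44 in place of 0.55.

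**Figure D4:**
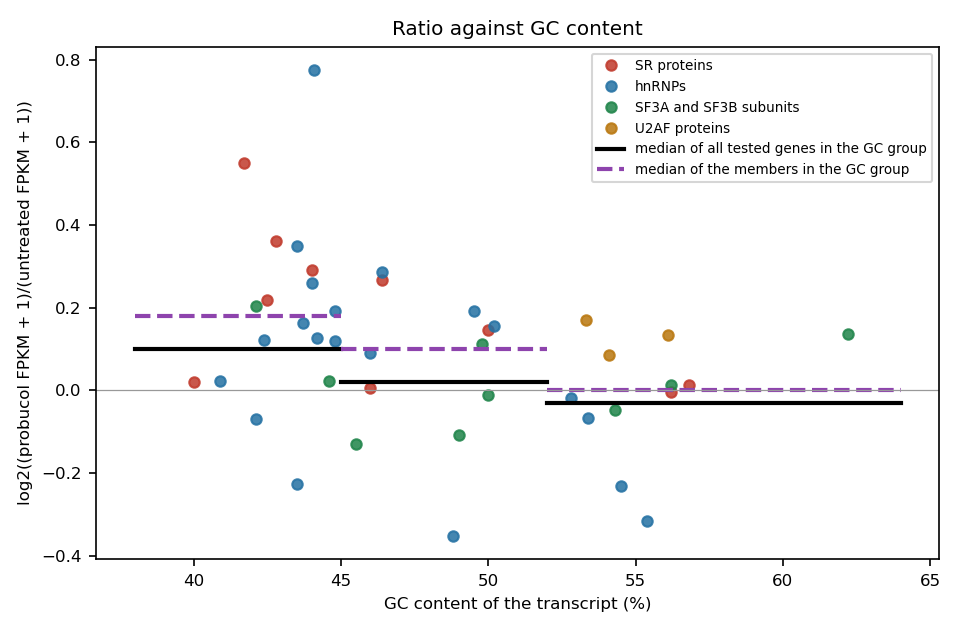
Log2 ratio of each of the 42 members against the GC content of its transcript in percent, coloured by family, with the median of the members (dashed) and of all tested genes (solid) in 3 GC groups. Members under 45% GC have a median of 0.18 and those at 52% or more one of 0.00; the medians of all tested genes go from 0.10 to -0.03.

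The families differed in a feature of their gene models. SR protein genes are known for conserved poison exons, whose inclusion sends the transcript to nonsense-mediated decay and so limits the level of the protein. In the GENCODE annotation, 9 of 10 SR members, all but Srsf10, had at least 1 transcript classed as a target of this decay, as had all 3 U2AF genes and 10 of 20 hnRNPs. Of the 9 SF3A and SF3B genes only Sf3b1 had one. Over all tested genes the share was 29.0%. Members with such a transcript had a median log2 ratio of 0.13 (19 of 23 above 0) and those without one a median of 0.02 (11 of 19 above 0). Within the hnRNPs, where 10 genes had such a transcript and 10 had none, both medians were 0.12. Among SR proteins, Srsf10, the gene without one, was at 0.22 and the median of the other 9 at 0.15. Of the 19 members without one, 8 were SF3A and SF3B genes, so the pooled difference cannot be told apart from family. The corresponding medians of all tested genes were 0.04 and 0.01. Members had a median of 7 annotated transcripts and all tested genes one of 5. Each FPKM sums the transcripts of a gene, so the share of decay targets among them was not measured.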

How the data were processed

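RNA-seq values of 2 libraries of splenic CD4+ T cells were compared, 1 per treatment group. The authors deposited FPKM values, 1 per gene symbol, per the file headers. The submitters' processing notes list the tools TopHat2 2.1.1, Bowtie2 and Cuffdiff 2.2.1 and the build mm10, with no roles. Per the labels' protocols, cDNA came from a SMART-Seq HT kit and libraries from a Nextera kit. The sources used here do not give the annotation, filters or strand setting.

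Ratios were computed as log2 of (FPKM + 1) in the probucol library over the same in the untreated library, a scale that understates the change of low genes. Printed folds are ratios of the FPKM values themselves. Fragment numbers were estimated from steps in low FPKM values of genes with 1 annotated transcript: 0.101 and 0.100 FPKM per fragment at 1 kb, with 210 bases subtracted. The share of these values no more than 0.1 from a whole fragment was 77.3% and 77.8%. With the median transcript length of each gene in GENCODE M21, these gave exact (Clopper-Pearson) 95% intervals of the ratio, which are only approximate where transcripts differ in length. PCR copies were not removed.

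Genes to be named were, in the SR and hnRNP families, the 4 highest and 4 lowest ratios and the 3 highest levels, all SF3 and U2AF genes, Hnrnpll with Ptprc, and up to 3 genes at either end of each splicing list. Other members are given with their values too, and some list genes are left out for length. Members and lists were chosen with earlier results of these data known. The estimate of fragment steps and the 2-fold calls were tested on simulated data. The counting intervals, the removal of the trend and the list medians were not tested in this way. Python 3.11.15 with scipy 1.17.1 and statsmodels 0.14.6 was used, and the closing section gives the effect of 9 alternatives.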

Additional observations from a re-analysis of the deposited data

How the results depend on the processing

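The 9 alternatives were other pseudocounts, other filters on low values, rescaling, centring, removal of a trend on length and GC content, and leaving out predicted symbols. The medians of SR proteins (0.16 to 0.20), hnRNPs (0.0909 to 0.14) and all members (0.098 to 0.14) stayed above 0 in all 9, and 1 member, Hnrnph3, was past 1.5-fold in each. The SF3A and SF3B median became -0.00557 when centred, and the U2AF median 0.21 with the trend removed, where the fitted trend of these genes was -0.10. The number of members above 0 went from 27 (centred) to 33 of 42 (rescaled). Tested genes at least 1.5-fold higher numbered 206 with pseudocount 5, 325 at a mean of 5 FPKM or more and 216 at 10 FPKM or more; those lower numbered 200, 272 and 166, and 1071 with no filter. Of 99 recomputed medians of the splicing lists, 95 stayed within the order-statistic interval across the genes of the list. That interval treats genes as independent and is wide for short lists, so staying within it does not show that a median is stable. Among genes named in the report with a log2 ratio beyond 0.05 of 0, removing the trend moved some by about 1.5 times or more toward 0. They included Sf3b1 (0.20 to 0.0389), Hnrnpk (0.12 to 0.0801), Hnrnpll (0.13 to 0.0853), Ptprc (0.32 to 0.19) and Lsm4 (-0.27 to -0.13). Tardbp (0.39 to 0.21), U2surp (0.43 to 0.27), Matr3 (0.46 to 0.25) and Smg1 (0.66 to 0.34) were others. The ratio moved away from 0 for Hnrnpr (-0.23 to -0.50), Sf3a2 (0.13 to 0.20), Sf3a3 (0.11 to 0.17) and Sf3b3 (-0.11 to -0.17). The same held for U2af1 (0.17 to 0.29) and U2af1l4 (0.08 to 0.21), and Srsf3 went from 0.0208 to -0.0404. With pseudocount 5, Hnrnpa0 was at -0.20, Smg1 at 0.38, Snrnp35 at -0.55 in place of -0.96, and Pcbp4 at -0.80 in place of -1.72. The snRNP, catalytic and minor spliceosome medians changed sign in 2, 4 and 1 of the alternatives. The median of the exon junction and decay list fell as low as 0.00973. No paired analysis was possible because each group has 1 library. Depth limits scarce genes such as Hnrnpul2 and Srsf12 most.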
